A study of Mus musculus with 12 samples.

Results

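Gene expression in brown fat (BAT) was compared with that in subcutaneous white fat (sWAT) from mice housed at thermoneutrality, using the 3 BAT libraries and the 3 sWAT libraries taken at 30 °C out of the 12 libraries of the series. All 23163 genes of the count table entered, and 16365 had enough counts to be tested. Adipocyte genes such as Fabp4 were abundant in all 6 libraries and Ucp1 was higher in BAT, so the tissue labels fit these markers. Of white fat genes, Slc7a10 was higher in sWAT, while the leptin gene Lep overlapped between the depots. The animals were male wild-type C57Bl/6 mice aged 8 to 12 weeks, 20 in the study and 10 per temperature, held for 72 h at 30 °C or at 4 °C. The labels name no transgene and no agent. The labels do not give how many mice each library holds or whether the libraries come from different mice, so p-values measure only the spread between these libraries, which may be technical. The remaining 3 BAT and 3 sWAT libraries, from the mice at 4 °C, share no library with the 30 °C comparison, and the depot difference in them is given beside it.

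Brown adipocytes burn fatty acids in densely packed mitochondria and release the energy as heat through uncoupling protein 1 (Ucp1) in the inner membrane, whereas white adipocytes store triglyceride in a single droplet and secrete hormones such as leptin. The sympathetic nerves switch heat production on through β-adrenergic receptors and cyclic AMP, and at 30 °C a mouse needs little of it. Depots also keep the Hox code and other positional transcription factors of the body region they arose from, and a dissected fat pad also holds vessels, connective tissue and, depending on the depot, lymph nodes or bordering skeletal muscle.

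Cyclic AMP acts on transcription through CREB-family factors, whose full element is the palindrome TGACGTCA and whose shorter form is TGACG. Promoters were therefore searched on both strands for these letters in the 250 bases before each RefSeq gene start (GRCm38.p6), and the short form is also counted wherever the full one lies. The windows of 120 bases below are shown because they carry an element in genes whose transcripts set the depots apart, with the element named in each line in capitals, each written 5′ to 3′ along the gene.
Ucp1, chr8:83290143-83290262, plus strand, short element 143 bases before the start: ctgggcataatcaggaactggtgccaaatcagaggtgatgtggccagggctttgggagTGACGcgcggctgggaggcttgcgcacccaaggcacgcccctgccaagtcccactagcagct
Dio2, chr12:90739070-90739189, minus strand, full element 88 bases before the start: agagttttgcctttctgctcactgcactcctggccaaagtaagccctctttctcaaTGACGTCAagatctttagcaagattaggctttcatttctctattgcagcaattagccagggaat
Cycs, chr6:50566675-50566794, minus strand, full element 162 bases before the start: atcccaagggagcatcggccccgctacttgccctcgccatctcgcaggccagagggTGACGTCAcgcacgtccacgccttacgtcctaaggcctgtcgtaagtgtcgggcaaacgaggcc
Ndufa10, chr1:92473762-92473881, minus strand, full element 60 bases before the start: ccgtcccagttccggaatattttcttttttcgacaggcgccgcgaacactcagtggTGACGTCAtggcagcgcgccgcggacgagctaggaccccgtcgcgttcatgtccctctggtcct
Ogdh, chr11:6291477-6291596, plus strand, full element 44 bases before the start: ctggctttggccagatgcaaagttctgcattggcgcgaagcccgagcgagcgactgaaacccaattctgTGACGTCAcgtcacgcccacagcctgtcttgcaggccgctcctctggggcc
A short form on the other strand directly after the full element of Ogdh is left in lower case. Ogdh has 6 starts in the RefSeq table, and the window is that of 1 of them. Of the 11870 tested genes with a promoter in the table, 329 (2.77%) held the full element, against 119 of 3552 genes (3.35%) called higher in BAT at 30 °C and 71 of 3330 (2.13%) called higher in sWAT. Among the nuclear respiratory chain genes 5 of 62 (8.06%) held it, in the citric acid cycle 2 of 20 (10%), and among the thermogenic effectors 1 of 21 (4.76%), which was Dio2. Lists that leaned to BAT did not all hold it: it was in none of 20 fatty acid oxidation genes, 19 genes of branched-chain amino acid catabolism and 24 brown fat transcription factors and coregulators. Of the cytosolic ribosomal protein genes, which leaned to sWAT, 5 of 59 (8.47%) held it. The short form was in 28.3% of all tested promoters, in 30.8% of those higher in BAT and in 24.9% of those higher in sWAT. A match describes the letters of the window and no binding.

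Counts per library at 30 °C totalled 29253388, 42148940 and 36837936 in BAT and 29404276, 27117934 and 29172972 in sWAT, and levels are given as CPM, a gene's count relative to the TMM-scaled total of its library. The 3 sWAT libraries at 30 °C stood apart from the other 9 of the series in composition. Mitochondrially encoded genes took 0.181% to 0.307% of their counts, against 17.6% to 53.8% in the other 9, and cytosolic ribosomal protein genes took 7.17% to 8.14%, against 0.335% to 1.85%. Their levels also climbed with the GC content of the transcript, by 0.80 to 1.37 log2 units per 10 percentage points, whereas the slopes in the other 9 libraries lay between -0.74 and 0.24. Per doubling of transcript length, levels rose by 0.41 to 0.49 log2 units in the sWAT libraries at 30 °C, against 0.64 to 1.06 in the other 9. Of the genes in the lowest of 10 equal classes of GC content 61.7% were called higher in BAT and 7.28% higher in sWAT, and in the highest class 5.46% and 50.2%. At 4 °C the median depot difference stayed between -0.08 and -0.00 in all 10 GC classes. The 4 °C groups were themselves uneven, with GC slopes of 0.16, 0.24 and -0.74 in BAT and -0.47, 0.17 and -0.11 in sWAT. Mitochondrially encoded genes took 24.4%, 20.0% and 53.8% of the counts in BAT there and 33.6%, 19.7% and 23.4% in sWAT. A gene not called at 4 °C was therefore not shown to be equal between the depots. Y-linked Ddx3y, a low-GC RNA helicase gene, was at 67.8 to 76.8 CPM in BAT and 1.16 to 2.83 CPM in sWAT at 30 °C, and at 49.3 to 78.4 CPM in sWAT at 4 °C, although all mice are labelled male. The Y-linked genes Eif2s3y and Uty were also low in sWAT at 30 °C, at 1.81 to 5.50 and 0.535 to 1.69 CPM. Y-linked Kdm5d was at 6.63, 7.38 and 15.7 CPM there, so Y-linked transcripts were present in these libraries. At 30 °C the composition of these libraries and the tissue cannot be told apart. A second fit with a GC curve removed from each library is given below for the calls of named genes that it ended and for the lists whose printed count or median it moved by more than 1.5 times. It moved the log2 difference at 30 °C from 5.19 to 3.36 for Ddx3y and from 1.57 to 0.77 for Kdm5d. Values of the pair at 4 °C are given beside many results.

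**Figure D1:**
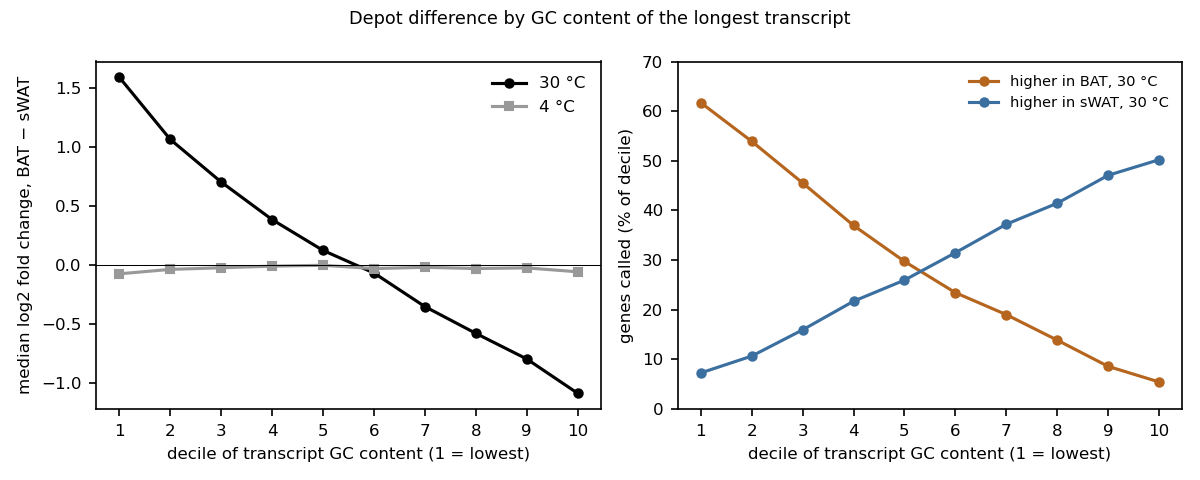
Depot difference in 10 equal classes of transcript GC content (x axis, 1 lowest). Left, median log2 fold change of BAT minus sWAT at 30 °C (black) and 4 °C (grey); right, percent of genes called higher in BAT or in sWAT at 30 °C. The median at 30 °C falls from 1.59 in the lowest class to -1.09 in the highest, and the line at 4 °C is flat.

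At 30 °C, 4885 of the 16365 genes (29.9%) were higher in BAT and 4714 (28.8%) were higher in sWAT, 58.7% in either direction, by edgeR's quasi-likelihood test at a Benjamini-Hochberg adjusted p below 0.05 (called below). Of them, 4213 and 4103 differed at least 2-fold. Over all genes the median log2 difference, BAT minus sWAT, was 0.03. All 3 BAT libraries lay above all 3 sWAT libraries for 5290 genes (32.3%) and below them for 5506 (33.6%), so groups that do not overlap are common here and counts in a gene list have to be read against these shares. Between the depots at 4 °C, 195 genes (1.19%) were higher in BAT and 1820 (11.1%) in sWAT. At both temperatures 137 genes (0.837%) were higher in BAT, 2.80% of the 30 °C list and 70.3% of the 4 °C list, and 1531 (9.36%) were higher in sWAT, 32.5% and 84.1% of the lists. A further 65 genes were higher in BAT at 30 °C and in sWAT at 4 °C, and 5 the other way. The depot difference itself differed between the temperatures for 4108 genes (25.1%), toward BAT at 30 °C for 17.3% and toward sWAT for 7.85%. With the GC curve removed, 128 of the 137 and 1482 of the 1531 stayed called in the same direction at 30 °C. Their calls at 4 °C are those of the fit without that step. In bulk tissue fewer cells of a type and less RNA per cell cannot be told apart.

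The largest differences among well expressed genes (mean log2 CPM of at least 3, without overlap) fell into separate kinds. Higher in BAT were Uqcrb, a complex III subunit; Dio2, the deiodinase that activates thyroid hormone; Fabp3, a fatty acid carrier of oxidative tissues; the stress chaperone Hspa1a; the transferrin receptor Tfrc; and the muscle genes Tnnt1, Mybpc1 and Mb. Uqcrb was at 647, 748 and 669 CPM in BAT and at 3.65, 4.83 and 2.81 CPM in sWAT, a log2 fold change of 7.51 ± 0.41 (± its standard error, SE, as for all such values below; adjusted p = 2.86e-07). At 4 °C its difference was 0.40 (adjusted p = 0.457), and with the GC curve removed its difference at 30 °C was 6.14. Tfrc, which takes up iron, was at 220.2, 202 and 36.4 CPM in BAT and 1.37, 2.62 and 3.77 CPM in sWAT, 5.88 ± 0.68 on the log2 scale, so the third BAT library was far below the other two but still above every sWAT library. At 4 °C the value was -0.68 (adjusted p = 0.488). The low-GC housekeeping genes Emc2 (5.63), Psmc6 (5.32) and Tbca (5.13), chosen after their values were seen, showed the same contrast, with log2 differences of 0.31, 0.28 and 0.16 between the depots at 4 °C. Their lowest values at 30 °C over all alternative fits, the one with the GC curve removed included, were 4.40, 3.57 and 4.19. Among those higher in sWAT were Cd79a, Cd79b, Cd22, Ltb, Lck, Rasal3 and Tbc1d10c, genes of lymphocytes, with log2 fold changes from -7.62 (Cd79a) to -6.99 (Lck). All of these were also called higher in sWAT at 4 °C.

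**Figure D2:**
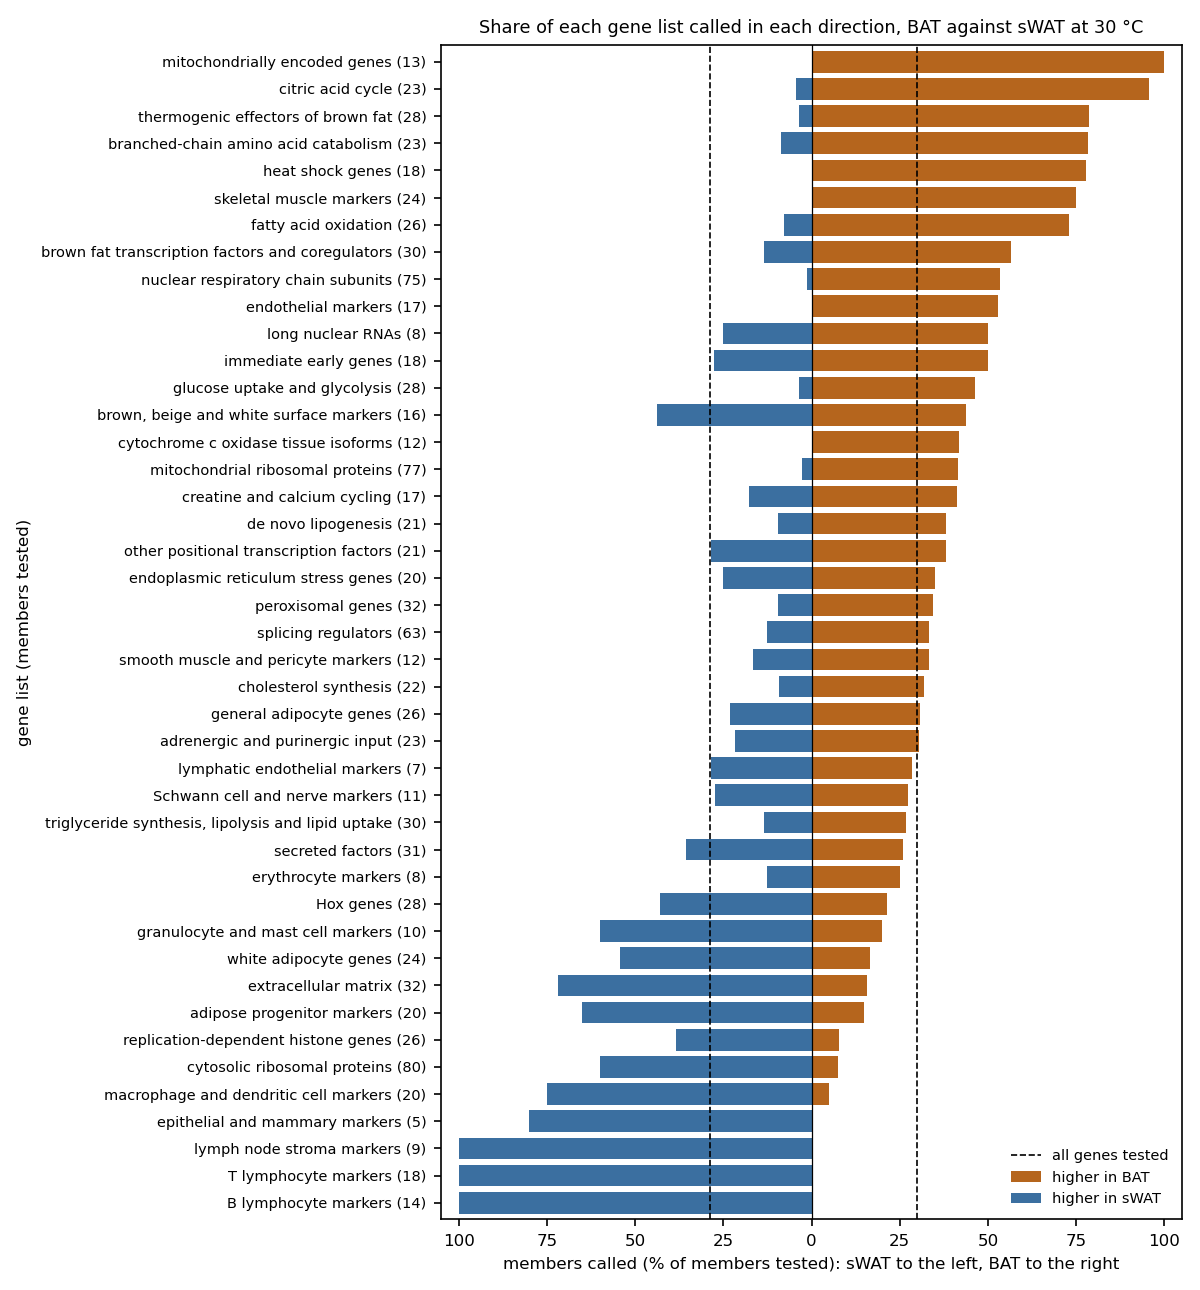
Percent of tested members called higher in BAT (right, brown) and in sWAT (left, blue) at 30 °C, for each gene list with at least 5 tested members (number in brackets). Dashed lines mark the shares over all genes tested, 29.9% and 28.8%; mitochondrially encoded genes stand at 100% on the BAT side and the lymphocyte lists at 100% on the sWAT side.

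The thermogenic effectors of brown fat were mostly higher in BAT in mice held at thermoneutrality. Of the 28 genes on this list, 22 were higher in BAT and 1 in sWAT, against 29.9% and 28.8% of all genes, with a median log2 fold change of 2.47 against 0.03. Ucp1, which lets protons leak across the inner mitochondrial membrane, was at 1419.7, 1816 and 2554 CPM in BAT and 377, 106 and 41.2 CPM in sWAT, 3.46 ± 0.75 on the log2 scale (adjusted p = 0.0016). The groups did not overlap, and the sWAT libraries differed among themselves far more than the BAT libraries did. At 4 °C the Ucp1 levels were 23105, 22519 and 20081 CPM in BAT and 3212, 13215 and 11605 CPM in sWAT, a difference of 1.23 (adjusted p = 0.29), and the difference was not shown to differ between the temperatures (adjusted p = 0.108). Cidea, a lipid droplet protein, was at 4049, 4025 and 3015 CPM in BAT and 356, 217 and 120.1 CPM in sWAT (3.999 ± 0.50, adjusted p = 2.92e-05). Here the depot difference was larger at 30 °C than at 4 °C, where it was 0.99 (adjusted p of the change = 0.00585).

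Dio2, whose promoter window with the full element is printed above, was at 58.9, 91.997 and 141 CPM in BAT and 1.14, 0.704 and 0.493 CPM in sWAT, 6.96 ± 0.56 on the log2 scale (adjusted p = 1.4e-06). Kng2, a kininogen, was the only member of the list with a wider gap, at 68.8, 77.4 and 83.3 against 0.419, 0.388 and 0.133 CPM (7.94 ± 0.66). Both gaps were smaller at 4 °C (1.00 and 1.38). Ntrk3, a neurotrophin receptor, had the smallest adjusted p of the list, at 634, 446 and 516 CPM in BAT and 24.2, 19.9 and 18.7 CPM in sWAT (4.67 ± 0.33, adjusted p = 7.53e-07). It alone of the 28 was also called higher in BAT at 4 °C (1.23, adjusted p = 0.0129). The fatty acid handling members were higher in BAT as well: the carrier Fabp3 by 6.06 ± 0.73, the transporter Slc27a2 by 4.41 ± 0.63, the gatekeeper of mitochondrial fatty acid entry Cpt1b by 3.27 ± 0.56, the elongase Elovl3 by 2.82 ± 0.55, glycerol kinase Gk by 3.17 ± 0.45 and pantothenate kinase Pank1 by 3.84 ± 0.50. Fabp3 stood at 256, 378 and 451 CPM in BAT and 10.6, 3.74 and 1.88 CPM in sWAT, and Elovl3 at only 8.70, 6.33 and 10.1 against 1.26, 1.67 and 0.645 CPM. Letmd1, a mitochondrial inner membrane protein, was higher by 2.52 ± 0.41 and Ucp3, a relative of Ucp1, by 1.28 ± 0.30, from 115, 102 and 121 CPM in BAT and 61.2, 49.9 and 28.3 CPM in sWAT. The 1 member higher in sWAT was Adrb3, the β3-adrenergic receptor of adipocytes, at 129, 120.3 and 76.01 CPM in BAT and 366, 398 and 333 CPM in sWAT (-1.76 ± 0.46, adjusted p = 0.00511), with a difference of -0.02 at 4 °C. Cox8b, a subunit isoform often used to mark brown fat, overlapped between the groups at 728, 602 and 151 and 361, 243 and 81.2 CPM (1.11 ± 0.67, adjusted p = 0.171) and was called with the GC curve removed (1.92, adjusted p = 0.0136).

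**Figure D3:**
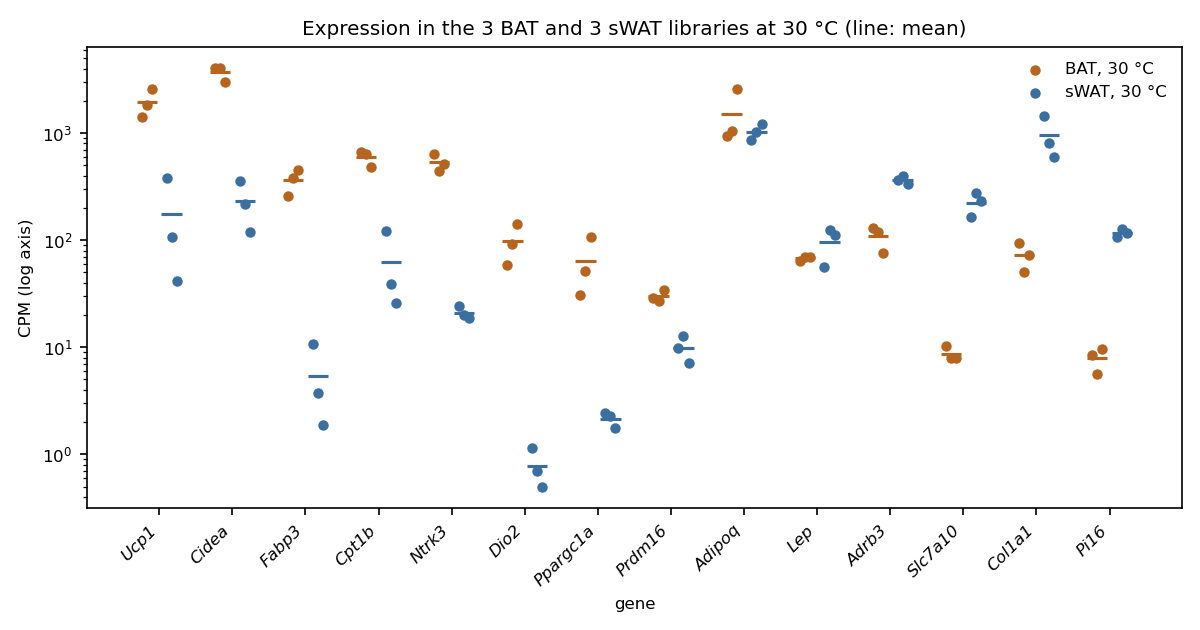
CPM on a log axis for 14 genes in each library at 30 °C, BAT in brown and sWAT in blue, with a line at each group mean. The BAT points lie above the sWAT points for the 8 genes from Ucp1 to Prdm16, mix with them for Adipoq and Lep, and lie below them for Adrb3, Slc7a10, Col1a1 and Pi16.

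Transcription factors and coregulators that build or run brown adipocytes followed, with 17 of 30 higher in BAT, 4 in sWAT and a median of 1.16, or 0.67 with the GC curve removed. The 4 on the sWAT side became 1 without the first BAT library or the second sWAT library and 2 without the first sWAT library. Ppargc1a, the coactivator that drives mitochondrial gene programmes, was at 30.9, 51.9 and 108 CPM in BAT and 2.44, 2.26 and 1.75 CPM in sWAT (4.89 ± 0.57, adjusted p = 1.72e-05). The BAT libraries spread widely, and none came near an sWAT library. Its relative Ppargc1b was higher by 2.78 ± 0.41, the fatty-acid-sensing receptor Ppara by 2.78 ± 0.41, the orphan receptor Esrrg by 3.97 ± 0.39 and the thyroid hormone receptor Thrb by 2.73 ± 0.37. Esrra, an orphan receptor through which Ppargc1a acts, overlapped at 132, 135 and 34.7 and 173, 189.7 and 115 CPM (-0.66 ± 0.63, adjusted p = 0.387). Of the lineage regulators, Ebf2 was at 38.3, 47.3 and 39.2 CPM in BAT and 6.44, 5.99 and 7.55 CPM in sWAT (2.64 ± 0.29), Nfia was higher by 2.61 ± 0.32 and the adipocyte master regulator Pparg by 2.44 ± 0.29. Prdm16, which maintains the brown fate, was at 28.7, 26.8 and 34.1 CPM in BAT and 9.86, 12.6 and 7.15 CPM in sWAT (1.59 ± 0.30, adjusted p = 0.000561). It was the member of the list called in BAT at 4 °C too (1.01, adjusted p = 0.0384).

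The classical marker of the interscapular lineage, the transcription factor Zic1, was at 3.95, 5.06 and 18.2 CPM in BAT and 0, 0.097 and 0.019 CPM in sWAT (7.82 ± 1.45, adjusted p = 0.000532). The third BAT library was well above the other two. Lhx8, also used as a brown fat marker, overlapped at 1.67, 2.35 and 1.15 and 1.28, 2.01 and 1.76 CPM (0.03 ± 0.39, adjusted p = 0.959). Among 16 markers proposed for brown, beige and white adipocytes, many of them surface proteins, 7 were higher in BAT and 7 in sWAT, and 2 and 6 were so at both temperatures. The purinergic receptor P2rx5 was at 96.4, 104 and 95.8 against 21.4, 21.96 and 11.4 CPM (2.44 ± 0.27), the amino acid transporter Slc36a2 was higher in BAT by 1.69 ± 0.32, and Mpzl2 (2.84 ± 0.34) and Ebf3 (1.61 ± 0.31) were the 2 called in BAT at both temperatures. On the other side the white adipocyte amino acid transporter Slc7a10 was at 10.3, 7.91 and 7.94 CPM in BAT and 165, 275 and 229.8 CPM in sWAT (-4.68 ± 0.36, adjusted p = 1.2e-06), and at 4 °C the difference was -2.01 (adjusted p = 0.000973). Proposed beige markers were on the white side: Epsti1 at 2.65, 2.60 and 5.79 against 173, 177 and 144 CPM (-5.48 ± 0.42), together with Tbx1 (-4.19 ± 0.48), Tmem26 (-4.25 ± 0.82) and Tnfrsf9 (-2.91 ± 0.50). All 4 were also called higher in sWAT at 4 °C, with log2 differences of -4.78, -2.60, -3.87 and -2.06. Tnfrsf9 is also a receptor of activated T cells and Epsti1 responds to interferon. T lymphocyte markers, summed, stood at 15.8 to 20.8 CPM in BAT and 687 to 1145 CPM in sWAT, and their part in both genes was not tested.

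Genes typical of white adipocytes leaned to sWAT, 13 of 24 against 4 higher in BAT, with a median of -1.50 (-0.75 with the GC curve removed), and 7 of the 13 were higher in sWAT at 4 °C as well. Leptin itself, the satiety hormone of fat, was not called at 30 °C. Lep was at 64.5, 69.02 and 70.2 CPM in BAT and 55.6, 124 and 111 CPM in sWAT (-0.51 ± 0.43, adjusted p = 0.319), and the groups overlapped. At 4 °C it was at 14.5, 10.7 and 7.10 CPM in BAT and 177, 50.99 and 74.9 CPM in sWAT, -3.23 on the log2 scale (adjusted p = 0.000455), and the test of the change between the temperatures gave an adjusted p of 0.00803. Adiponectin, Adipoq, which all adipocytes make, overlapped at 934, 1049 and 2553 and 851, 1031 and 1205 CPM (0.55 ± 0.38, adjusted p = 0.225). The hormone resistin, Retn, was at 98.6, 52.9 and 26.3 CPM in BAT and 264, 227 and 274 CPM in sWAT (-2.10 ± 0.49, adjusted p = 0.00267), and at 4 °C the difference was -2.58. The imprinted gene Nnat (-2.95 ± 0.37), the serine synthesis enzyme Psat1 (-2.62 ± 0.32), the activin subunit Inhbb (-2.97 ± 0.39), the synuclein Sncg (-2.48 ± 0.47), Trim14 (-4.39 ± 0.45) and the adipogenesis inhibitor Wnt10b (-5.22 ± 0.63) completed the members higher in sWAT at both temperatures. Nnat stood at 67.1, 64.2 and 25.5 against 336, 457 and 417 CPM and Psat1 at 7.68, 5.48 and 5.88 against 39.98, 29.7 and 46.98 CPM, with no overlap for either. Adipsin, Cfd, the complement protease of fat, was at 1744, 1337 and 1079 CPM in BAT and 9092, 10303 and 5933 CPM in sWAT (-2.61 ± 0.66), and angiotensinogen, Agt, was higher in sWAT too (-3.50 ± 0.45). The retinoid enzyme Aldh1a1 went the other way at the 2 temperatures. It was at 14.1, 19.5 and 28.7 CPM in BAT and 6.37, 5.32 and 8.48 CPM in sWAT at 30 °C (1.62 ± 0.32), and the difference at 4 °C was -1.77 (adjusted p = 0.00256; adjusted p of the change = 0.000682).

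General adipocyte genes were split, with 8 of 26 higher in BAT, 6 in sWAT and a median of 0.04, close to the background. With the GC curve removed the 6 fell to 1 and the median was 0.30. Leaving out single libraries also moved these counts: the 8 became 5 without the second BAT or the second sWAT library. The 6 became 1 without the third BAT library or the first or second sWAT library and 3 without the first BAT library. The fatty acid carrier Fabp4 was nevertheless at 8626, 7616 and 8208 CPM in BAT and 1442, 459 and 739 CPM in sWAT (3.21 ± 0.47, adjusted p = 9.75e-05), and the fatty acid receptor Cd36 at 1024, 1002 and 1109.6 and 69.7, 75.3 and 126 CPM (3.53 ± 0.40). Neither differed at 4 °C beyond the threshold (-0.11 and 0.39), and both have transcripts of low GC content. Both stayed called at 30 °C in all alternative fits, the one with the GC curve removed included, with lowest values of 2.11 and 1.97. Of 31 secreted factors, 8 were higher in BAT and 11 in sWAT (25.8% and 35.5%, against 29.9% and 28.8% of all genes). The NAD synthesis enzyme Nampt, also found in plasma, led the BAT side at 315, 393 and 458 against 20.3, 29.6 and 20.4 CPM (4.05 ± 0.32), and the neuregulin Nrg4, which signals to the liver, was at 80.4, 100.2 and 158 against 27.9, 38.1 and 40.5 CPM (1.67 ± 0.28). Chemerin, Rarres2 (-2.25 ± 0.30), and Bmp7 (-4.02 ± 0.63), a growth factor known to promote brown adipogenesis, were higher in sWAT at both temperatures. Bmp7 was at 0.072, 0.113 and 0.750 CPM in BAT and 5.95, 5.63 and 4.55 CPM in sWAT.

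Hox genes record position along the body, and their paralog number runs from head to tail. Of 28 tested Hox genes, 6 were higher in BAT and 12 in sWAT, with a median of -0.18, and all 6 on the BAT side had paralog numbers of 5 or less. With the GC curve removed 9 were higher in BAT, Hoxa7 and Hoxc6 among them, and 8 in sWAT, with a median of 0.31. Among the 6 were Hoxa3 (1.31 ± 0.33), Hoxa4 (3.39 ± 0.45), Hoxa5 (1.67 ± 0.48), Hoxc4 (2.41 ± 0.42) and Hoxc5 (1.35 ± 0.35). Hoxa4 was at 9.39, 11.5 and 33.1 CPM in BAT and 1.95, 1.82 and 1.37 CPM in sWAT, and it was higher in BAT at 4 °C too (1.65, adjusted p = 0.0184). At the tail end Hoxc10 had no count in any of the 3 BAT libraries and stood at 9.84, 14.2 and 6.28 CPM in sWAT, so it was at least 344-fold higher in sWAT, taking 3 counts over the BAT group as the floor. Hoxc9 was at 0.036, 0 and 0 CPM in BAT and 9.37, 16.04 and 8.88 CPM in sWAT (-9.78 ± 0.70, adjusted p = 7.39e-07), and Hoxa10 at 0.036, 0.028 and 0 and 5.44, 11.6 and 5.18 CPM (-8.36 ± 0.98). Hoxa9 (-2.81 ± 0.48) and Hoxc8 (-1.57 ± 0.41) followed, and these 5 were the Hox genes called in sWAT at both temperatures. Within the a and c clusters the called genes changed sign after paralog 5, and Hoxa7 (0.45 ± 0.28) and Hoxc6 (0.31 ± 0.27) were not called. With the GC curve removed both were called higher in BAT, so the change did not lie at paralog 5 in that fit.

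The b and d clusters did not show that order. In the d cluster Hoxd3 (-3.35 ± 0.63), Hoxd4 (-1.59 ± 0.44), Hoxd9 (-1.53 ± 0.48) and Hoxd10 (-3.68 ± 0.87) were all higher in sWAT, and Hoxd8 was not called (0.08 ± 0.30). In the b cluster Hoxb5 (-0.96 ± 0.33) and Hoxb6 (-1.44 ± 0.35) were higher in sWAT by small amounts, while Hoxb2, Hoxb3, Hoxb4, Hoxb7, Hoxb8 and Hoxb9 were not called (-0.29, -0.50, 0.57, -0.07, 0.42 and -0.04 in that order), nor was Hoxa2 (0.82). Hoxa6 was called in sWAT (-1.14 ± 0.42, adjusted p = 0.033). Several of these calls did not hold in every fit. With the GC curve removed, Hoxa6, Hoxb5, Hoxb6 and Hoxd9 lost their calls (adjusted p = 0.63, 0.264, 0.0577 and 0.498), while Hoxa7, Hoxb4 and Hoxc6 were called higher in BAT (0.92, 1.34 and 0.74). Hoxa6 lost its call without the second or the third library of either depot (adjusted p up to 0.134), and Hoxb5 without the first or second BAT library or the second sWAT library (up to 0.0798). Without the third BAT library Hoxb7 was called higher in sWAT (-1.15, adjusted p = 0.0274) and the value of Hoxd10 moved to -6.36.

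**Figure D4:**
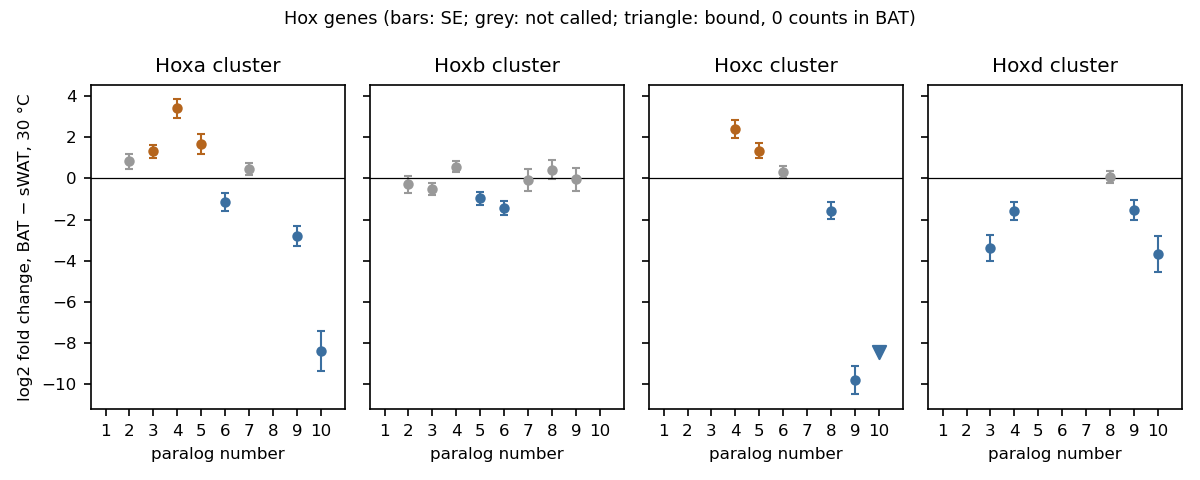
Log2 fold change, BAT minus sWAT at 30 °C, by paralog number (x axis) in the 4 Hox clusters, with SE bars, for most of the tested genes; brown and blue mark genes called higher in BAT and in sWAT, grey those not called. Hoxc10, without a count in BAT, is a triangle at its bound of 344-fold. The called points of the a and c clusters change side after paralog 5 in this fit, which is without the GC curve removed.

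Other positional factors were mixed, with 8 of 21 higher in BAT, 6 in sWAT and a median of 0.54, or 3 in sWAT and 0.83 with the GC curve removed. Without that step the shares were 38.1% and 28.6%, against 29.9% and 28.8% of all genes. The T-box gene Tbx5, a forelimb and heart regulator, was at 11.6, 6.70 and 17.5 CPM in BAT and 2.00, 1.19 and 0.948 CPM in sWAT (3.11 ± 0.44) and was called in BAT at 4 °C as well (1.78). The homeobox genes Shox2, at 0.870, 1.05 and 1.41 against 6.49, 10.4 and 5.10 CPM (-2.71 ± 0.48), and Emx2 (-1.92 ± 0.63) were called in sWAT at both temperatures. Emx2 lost its call at 30 °C without the first BAT library (adjusted p = 0.0735), without the second (0.0812) and with the GC curve removed (0.062), and without the third BAT library its value was -3.14. Six4, a regulator of muscle precursors, was higher in BAT at 30 °C (3.98 ± 0.55) and not called at 4 °C (-0.46). Tbx15, which marks subcutaneous preadipocytes and is also known in brown fat, overlapped at 7.07, 22.9 and 14.4 CPM in BAT and 5.49, 10.05 and 7.19 CPM in sWAT (0.97 ± 0.38, adjusted p = 0.0427). Its call was lost without the second or the third BAT library or the first or the third sWAT library (adjusted p = 0.068 to 0.281) and with the GC curve removed (0.0634). At 4 °C it was higher in sWAT (-1.60, adjusted p = 0.0143), and the change between the temperatures had an adjusted p of 0.00558.

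Mitochondrially encoded transcripts differed by a wide margin. All 13 were higher in BAT, by 6.65 to 8.63 log2 units with a median of 7.66, and none was called at 4 °C, where the median was 1.09. mt-Co1, the catalytic subunit of cytochrome c oxidase, was at 125600.0, 152760.0 and 24703 CPM in BAT and 439, 647 and 430.1 CPM in sWAT (7.64 ± 0.86, adjusted p = 1.34e-05). mt-Cytb, of complex III, was at 35539, 45812 and 60202 and 120.3, 199 and 123 CPM (8.32 ± 0.72). The 13 genes did not move in parallel within BAT. In the third BAT library mt-Co3 stood at 673 CPM against 53272 and 52330.0 in the others, and mt-Nd3 at 38.7 against 4849 and 5187. There mt-Nd6 stood at 51.0 against 1159 and 1442, whereas mt-Nd5 was at 22552 against 4411 and 6719 and mt-Cytb was highest in that library. The same library gave the lowest mitochondrial share of the BAT group. Since the share of these genes in the sWAT libraries at 30 °C is unlike that of any other library, the depot and the libraries' composition cannot be told apart for them.

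Nuclear genes of the respiratory chain leaned the same way by a smaller margin. Of 75 subunits 40 were higher in BAT and 1 in sWAT, with a median of 1.19. The 1 became 2 with the GC curve removed and without the second BAT library. At 4 °C 1 was called, in sWAT, and the median was 0.39. Cytochrome c, Cycs, whose promoter window is printed above, was at 383, 434 and 232 CPM in BAT and 13.5, 6.67 and 1.44 CPM in sWAT (5.60 ± 0.72, adjusted p = 3.67e-05). The complex I subunits Ndufa5 (4.57 ± 0.60), Ndufs1 (3.34 ± 0.34) and Ndufa10 (2.48 ± 0.43) and the complex III core protein Uqcrc2 (3.49 ± 0.37) were higher in BAT. Ndufs1 stood at 285, 442 and 554 CPM in BAT and 39.5, 45.5 and 41.5 CPM in sWAT, with almost no spread in sWAT, and Ndufa10 at 554, 816 and 521 and 146, 108 and 84.1 CPM. The subunit higher in sWAT was Atp5g3, 1 of the 3 genes for the ATP synthase c ring, at 172, 145 and 79.1 CPM in BAT and 455, 529 and 369 CPM in sWAT (-1.77 ± 0.57, adjusted p = 0.0169). Without the third BAT library its adjusted p was 0.0682.

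Cytochrome c oxidase has paired isoforms for several subunits, and levels per kilobase of the longest annotated transcript are given within a pair. Dividing by length does not remove the GC and length slopes in which the libraries of the depots differ. Cox7a1, the heart and muscle form that also marks brown fat, was at 414, 465 and 404 CPM in BAT and 82.9, 27.4 and 12.5 CPM in sWAT (3.39 ± 0.69, adjusted p = 0.00106). The widespread form Cox7a2 was higher in BAT too (2.22 ± 0.55). Per kilobase Cox7a1 reached a mean of 882 CPM in BAT against 595 for Cox7a2, and in sWAT 84.4 against 128. The difference in order between the depots was not tested, and the sWAT libraries of Cox7a1 spread widely. Cox8a stood above Cox8b in both, at 2851 and 1371 CPM per kilobase in BAT and 1755 and 635 in sWAT. Cox4i1 (0.35 ± 0.47), Cox4i2 (0.65 ± 0.48), Cox6a1 (1.37 ± 0.74), Cox6a2 (2.30 ± 1.09), Cox6b2 (-0.61 ± 0.56) and Cox8a (0.70 ± 0.73) were not called, and Cox7b (2.21 ± 0.46), Cox7a2l (1.61 ± 0.44) and Cox6b1 (1.81 ± 0.52) were higher in BAT. Cox6b1 was called although its lowest BAT library, at 268 CPM, lay below its highest sWAT library at 282. In all, 5 of 12 isoform genes were higher in BAT and none in sWAT, and 10 and none with the GC curve removed (11 and none with a length curve removed instead), when Cox7b lost its call (adjusted p = 0.13). Without the third BAT library the value of Cox7a2l was 0.71, and without the second sWAT library Cox6a2 was called (3.57, adjusted p = 0.0365).

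The citric acid cycle was nearly uniform, with 22 of 23 genes higher in BAT, 1 in sWAT and a median of 2.21. Sucla2, of succinyl-CoA ligase, was at 683, 1080.5 and 1131 CPM in BAT and 46.2, 50.5 and 24.8 CPM in sWAT (4.57 ± 0.45, adjusted p = 5.77e-06). Dld, the shared subunit of the α-keto acid dehydrogenases, was at 384, 583 and 703 and 20.6, 17.9 and 30.3 CPM (4.60 ± 0.49), and Ogdh, of 1 of those complexes, at 1172, 1896 and 1133 and 382, 166 and 172 CPM (2.54 ± 0.44). The isocitrate dehydrogenase subunits Idh3a (3.41 ± 0.42) and Idh3g (2.91 ± 0.39) were higher in BAT, and Idh3g was the member called at 4 °C too (1.24, adjusted p = 0.0449). The exception was pyruvate carboxylase, Pcx, which refills the cycle and feeds lipogenesis, at 637, 716 and 222 CPM in BAT and 2074, 1338 and 832 CPM in sWAT (-1.43 ± 0.48, adjusted p = 0.0208). Its call was lost without the third BAT library (adjusted p = 0.0703), without the first sWAT library (0.0926) and with the GC curve removed (0.267).

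Fatty acid oxidation had 19 of 26 genes higher in BAT, 2 in sWAT and a median of 1.46. Decr1, which handles unsaturated chains, was at 443, 437 and 653 CPM in BAT and 42.3, 34.3 and 42.7 CPM in sWAT (3.68 ± 0.32, adjusted p = 2.77e-06). The long-chain dehydrogenase Acadl (3.78 ± 0.47) and the trifunctional protein subunit Hadhb (3.19 ± 0.39) were also higher in BAT. On the sWAT side was the liver-type carnitine transferase Cpt1a, at 18.6, 18.004 and 14.9 against 33.4, 21.9 and 35.7 CPM (-0.82 ± 0.24), opposite to the muscle-type Cpt1b. Branched-chain amino acid catabolism was similar, with 18 of 23 higher in BAT, 2 in sWAT and a median of 1.28. Hibch, of valine breakdown, was at 168, 266 and 403 and 17.98, 21.96 and 27.4 CPM (3.63 ± 0.35), and Pcca, of propionyl-CoA carboxylase, was higher by 2.49 ± 0.34. The first step of the pathway, the mitochondrial transaminase Bcat2, was higher in sWAT, at 88.4, 102 and 38.5 against 271, 209 and 211 CPM (-1.60 ± 0.34, adjusted p = 0.00141).

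De novo lipogenesis had 8 of 21 genes higher in BAT and 2 in sWAT (none with the GC curve removed), with a median of 0.57. That median was 0.22 without the third sWAT library and 0.86 without the first, and the 2 became 1 without the third BAT or the second sWAT library. The elongase Elovl6, at 528, 487 and 694 CPM in BAT and 57.2, 48.8 and 51.7 CPM in sWAT (3.44 ± 0.34), and Mlxipl, the carbohydrate-sensing transcription factor ChREBP, at 423, 328 and 778 and 108, 141 and 84.2 CPM (2.20 ± 0.37), were called in BAT at both temperatures (1.20 and 1.24 at 4 °C). The desaturase Scd1 was at 29719, 40587 and 25225 CPM in BAT and 9494, 5609.5 and 3530.2 CPM in sWAT (2.36 ± 0.47). Triglyceride synthesis, lipolysis and lipid uptake gave 8 of 30 in BAT and 4 in sWAT, and 14 and 2 with the GC curve removed. Without the second BAT library the 8 became 5, and the 4 became 1 or 2 without the second or the third BAT library or the first or second sWAT library. The fatty acid transporter Slc27a1 was higher in sWAT at 178, 188 and 104 against 962, 732 and 609 CPM (-2.29 ± 0.41) and at 4 °C (-1.54). Glucose uptake and glycolysis gave 13 of 28 in BAT and 1 in sWAT, with a median of 1.07, 20 and 1 with the GC curve removed and 8 in BAT without the third sWAT library. Ldhb, the lactate-oxidising subunit (3.64 ± 0.50), the pyruvate dehydrogenase kinase Pdk4 (3.92 ± 0.59) and the lactate transporter Slc16a1 (2.17 ± 0.34) were higher in BAT. Pdk4 was at 739, 1252 and 895 CPM in BAT and 126, 37.6 and 27.7 CPM in sWAT. The glucose transporter Slc2a1 was the member higher in sWAT, at 11.5, 10.5 and 4.85 against 27.5, 18.4 and 21.3 CPM (-1.33 ± 0.36).

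Peroxisomal genes (11 of 32 in BAT, 3 in sWAT, median 0.48) and cholesterol synthesis (7 of 22 and 2, median 0.38) were closer to the share over all genes on the BAT side only. Their BAT shares were 34.4% and 31.8%, against 29.9% of all genes. On the sWAT side the shares were 9.38% and 9.09%, below the 28.8% of all genes. The 11 became 5 without the second BAT library. With the GC curve removed the members higher in sWAT numbered 5 and 0, and the peroxisomal median was 0.26. The cholesterol median was 0.21 without the third sWAT library, and the 2 became 1 without the third BAT library. The peroxisomal transporter Abcd3 (2.81 ± 0.30) and the phytanic acid hydroxylase Phyh (2.61 ± 0.30) were higher in BAT, as were squalene synthase Fdft1, at 163, 234 and 252 against 23.03, 24.5 and 29.3 CPM (3.08 ± 0.26), and the sterol enzyme Nsdhl (2.47 ± 0.25). None of the 4 was called at 4 °C (0.73, 0.79, 0.31 and 0.45).

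Receptors and second messengers of the sympathetic input had 7 of 23 higher in BAT and 5 in sWAT, and 12 and 5 with the GC curve removed. Without that step the shares were 30.4% and 21.7%, near the 29.9% and 28.8% of all genes. Adenylyl cyclase 5, Adcy5, was at 4.46, 3.99 and 3.19 CPM in BAT and 101, 143 and 86.6 CPM in sWAT (-4.83 ± 0.35, adjusted p = 8.03e-07), and the difference at 4 °C was -2.77 (adjusted p = 7.56e-05). The inhibitory receptor Adra2a was higher in sWAT at both temperatures at low levels, 0.326, 0.198 and 0.633 against 3.07, 2.26 and 2.16 CPM at 30 °C (-2.66 ± 0.51). On the BAT side stood the α1 receptor Adra1a, at 26.3, 35.8 and 37.1 against 11.6, 4.42 and 3.13 CPM (2.38 ± 0.46), the stimulatory G protein gene Gnas (2.09 ± 0.47) and the cyclic AMP phosphodiesterase Pde4d, at 64.4, 75.5 and 102 against 9.26, 7.67 and 8.91 CPM (3.23 ± 0.38). Creatine and calcium cycling, which can make heat without Ucp1, gave 7 of 17 in BAT and 3 in sWAT, and 8 and 5 with the GC curve removed. The creatine transporter Slc6a8 (1.80 ± 0.28) and the phosphatase Alpl (2.62 ± 0.55) were higher in BAT. The creatine synthesis enzyme Gamt, at 4.82, 3.79 and 1.99 against 11.7, 15.1 and 9.20 CPM (-1.77 ± 0.37), and the calcium pump Atp2a3, also made by blood cells, at 16.3, 11.6 and 7.50 against 219, 154 and 171 CPM (-3.95 ± 0.43), were higher in sWAT at both temperatures. Creatine kinase Ckb overlapped at 32.1, 30.7 and 14.4 and 39.8, 36.9 and 29.4 CPM (-0.46 ± 0.56, adjusted p = 0.503).

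Markers of cells other than adipocytes were prominent among the genes called at both temperatures. Every tested marker of B lymphocytes (14), T lymphocytes (18) and lymph node stroma (9) was higher in sWAT at 30 °C and again at 4 °C. The medians were -6.92, -6.01 and -7.56, and the last is -6.98 with Madcam1 and Tnfsf11, which had no count in BAT, set at their bounds. Summed over the list, B lymphocyte markers stood at 80.5 to 172 CPM in BAT and 1698.5 to 2679.6 CPM in sWAT, and lymph node stroma markers at 3.67 to 7.65 and 568 to 984 CPM. Cd79a, of the B cell receptor, was at 1.27, 0.678 and 0.890 CPM in BAT and 223, 167 and 164 CPM in sWAT (-7.62 ± 0.49, adjusted p = 4.46e-07), and the T cell receptor segment Trbc2 at 1.16, 0.989 and 1.43 and 94.5, 81.6 and 103 CPM (-6.28 ± 0.31). The homing chemokines Ccl21a, at 3.77, 2.06 and 2.81 against 455, 237 and 381 CPM (-6.96 ± 0.48), and Ccl19 (-8.89 ± 0.61) are made by lymph node stroma. Glycam1, a mucin of lymph node vessels, was at 0, 0.028 and 0.586 against 101, 39.003 and 126 CPM (-8.58 ± 1.02), and Madcam1 was at least 141-fold higher in sWAT. The epithelial marker Epcam was at 0, 0.028 and 0.023 CPM in BAT and 2.14, 0.995 and 1.46 CPM in sWAT (-6.12 ± 0.68), with 4 of 5 tested epithelial markers higher in sWAT.

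Macrophage and dendritic cell markers were higher in sWAT for 15 of 20 genes and in BAT for 1, with a median of -2.36, and 11 of the 15 were so at 4 °C. The 1 became none without the third BAT or the first sWAT library. Lyz2, lysozyme of phagocytes, was at 47.8, 33.8 and 63.9 CPM in BAT and 359, 365 and 905 CPM in sWAT (-3.48 ± 0.42), highest in the third sWAT library. The complement gene C1qa (-3.37 ± 0.31), the growth factor receptor Csf1r (-2.48 ± 0.28), the lectin Clec10a (-3.45 ± 0.31) and the dendritic cell receptor Flt3, at 0.616, 0.396 and 0.445 against 19.8, 12.8 and 20.01 CPM (-5.18 ± 0.48), were called at both temperatures.

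Adipose progenitor markers had 13 of 20 higher in sWAT, 3 in BAT and a median of -1.66 (-0.90 with the GC curve removed), with 8 of the 13 called at 4 °C as well. Pi16, of interstitial progenitors, was at 8.52, 5.62 and 9.70 CPM in BAT and 106, 127 and 116 CPM in sWAT (-3.87 ± 0.31, adjusted p = 1.44e-06). Dpp4 of the same cells (-2.95 ± 0.53), Thy1, also a T cell antigen (-3.90 ± 0.44), Icam1 of committed preadipocytes (-3.47 ± 0.35) and the matrix protein Dpt (-2.30 ± 0.28) were higher in sWAT at both temperatures. Pdgfra, the general progenitor receptor, overlapped at 12.03, 9.10 and 18.3 and 11.3, 12.3 and 20.5 CPM (-0.16 ± 0.34, adjusted p = 0.706). Extracellular matrix genes were higher in sWAT for 23 of 32 and in BAT for 5, with a median of -1.62, and the 5 became 3 without the first BAT or second sWAT library and with the GC curve removed. Col1a1 was at 93.2, 50.5 and 72.7 CPM in BAT and 1434, 812 and 600.1 CPM in sWAT (-3.72 ± 0.40), Col3a1 at 425, 271 and 188 and 2693, 2164 and 1536 CPM (-2.86 ± 0.41), and the collagen Col5a3 (-3.65 ± 0.47) and the cross-linker Loxl1 (-3.86 ± 0.67) differed as widely. At 4 °C 1 of the 23 was called, the microfibril gene Mfap5 (-2.96 ± 0.37 at 30 °C and -1.47 at 4 °C), and Col1a1 differed by -0.61 (adjusted p = 0.322; adjusted p of the change = 0.00192).

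Several blood vessel genes were higher in BAT at both temperatures. Endothelial markers were higher in BAT for 9 of 17 and in sWAT for none, with a median of 1.03, and Cdh5, Kdr, Flt1 and Emcn were called at 4 °C too. Leaving out the first BAT library put 3 of the 17 on the sWAT side. Flt1, a VEGF receptor, was at 189, 119.6 and 122 CPM in BAT and 18.4, 15.8 and 16.5 CPM in sWAT (3.09 ± 0.29, adjusted p = 3.58e-06) and differed by 1.29 at 4 °C (adjusted p = 0.00577). Kdr, the main VEGF receptor, was at 208, 116 and 114 and 42.5, 30.9 and 40.4 CPM (1.94 ± 0.30), the junction protein Cdh5 at 309, 212 and 310.1 and 113, 59.3 and 65.3 CPM (1.80 ± 0.31), and Emcn, of capillaries and veins, was higher by 2.60 ± 0.41. The tyrosine phosphatase Ptprb (2.52 ± 0.29) and the adhesion protein Pecam1 (1.03 ± 0.30) were called at 30 °C only, and the differences at 4 °C were 0.73 and 0.64, with adjusted p of 0.00654 and 0.507 for the change. The pericyte gene Rgs5 was at 597, 440.4 and 650.2 CPM in BAT and 31.4, 20.8 and 33.4 CPM in sWAT (4.30 ± 0.43) and was called at both temperatures (1.24 at 4 °C), Abcc9, of the same cells, was higher by 2.49 ± 0.31, and the receptor Flt4 by 1.07 ± 0.28. The lists of these 3 genes were nearer the shares over all genes, 29.9% and 28.8%. Of 12 smooth muscle and pericyte markers 4 were higher in BAT and 2 in sWAT, and 8 and 1 with the GC curve removed. Lymphatic endothelial markers, with Flt4, had 2 of 7 on each side. The 137 genes higher in BAT at both temperatures also included the vascular genes Podxl (2.82 ± 0.35), Heyl (2.98 ± 0.44) and Sox7 (2.10 ± 0.40), the chloride channel Ano1 (2.31 ± 0.38), the cadherin Cdh2 (2.86 ± 0.39) and the AMP deaminase Ampd3 (2.01 ± 0.27). These 6 were chosen after their values were seen.

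Skeletal muscle genes were present in both depots and varied between libraries. Of 24 markers 18 were higher in BAT and none in sWAT, with a median of 2.69, against a median of -1.53 at 4 °C with none called. The 18 became 11 without the second BAT library, 10 when only the 6 libraries at 30 °C were fitted, and 11 with no filter on low counts. Summed muscle markers stood at 5332.5, 16092 and 18717 CPM in BAT and at 2558.5, 6338 and 168 CPM in sWAT, so the third sWAT library was far below the rest. Troponin T1, Tnnt1, was at 59.7, 37.2 and 538 CPM in BAT and 3.67, 0.558 and 0.171 CPM in sWAT (7.18 ± 1.40), myoglobin, Mb, at 108, 349 and 797 and 17.7, 3.59 and 0.873 CPM (5.82 ± 1.03), and Mybpc1 was higher by 5.86 ± 0.94. Skeletal actin, Acta1, overlapped at 758, 1897 and 876 and 602, 1399 and 28.3 CPM (0.80 ± 0.92, adjusted p = 0.472). Muscle also expresses Fabp3, Cpt1b, Cox7a1, Cox6a2 and Ucp3, and its part in their depot difference was not tested.

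Heat shock genes were higher in BAT for 14 of 18 and in sWAT for none, with a median of 2.54. The inducible chaperone Hspa1a was at 203, 129.9 and 42.97 CPM in BAT and 1.44, 2.18 and 2.54 CPM in sWAT (5.93 ± 0.99), and at 4 °C the difference was 0.39. Hsp90ab1, a constitutive chaperone, was at 1076, 1131 and 1464 and 548, 290.3 and 389 CPM (1.58 ± 0.34) and was called at 4 °C as well (1.29, adjusted p = 0.0242). Immediate early genes, quickly induced by nerve signals and by handling, gave 9 of 18 in BAT and 5 in sWAT. The 5 fell to 1 with the GC curve removed and to between 1 and 3 when any single library was left out. The nuclear receptor Nr4a2 was at 28.4, 35.9 and 75.5 CPM in BAT and 2.30, 2.23 and 1.80 CPM in sWAT (4.46 ± 0.44) and was higher in BAT at both temperatures (1.84 at 4 °C). Its relative Nr4a1 (3.13 ± 0.38) differed by -0.03 at 4 °C (adjusted p of the change = 0.00158).

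Genes of the protein synthesis machinery split by compartment at 30 °C. Cytosolic ribosomal protein genes took a share of the counts in the sWAT libraries at 30 °C unlike that in any other library. For them the depot and the libraries' composition cannot be told apart. Cytosolic ribosomal proteins were higher in sWAT for 48 of 80 genes and in BAT for 6, with a median of -1.34, while mitochondrial ribosomal proteins were higher in BAT for 32 of 77 and in sWAT for 2, with a median of 0.53. With the GC curve removed the cytosolic median was -0.80, with 37 higher in sWAT and 7 in BAT. With a length curve removed instead it was -0.88, with 34 and 12. Without the first sWAT library the 6 became 13. Rps2 was at 224, 185 and 176 CPM in BAT and 1396, 2542 and 1878 CPM in sWAT (-3.31 ± 0.44), with a difference of 0.16 at 4 °C, and Rps19 differed in the same direction (-2.74 ± 0.39). The mitochondrial Mrpl1 was at 17.2, 18.5 and 20.99 and 0.977, 0.680 and 1.33 CPM (4.24 ± 0.38). At 4 °C 1 of the 80 cytosolic genes was called, in sWAT, and 2 of the 77 mitochondrial genes, in BAT. The 2 mitochondrial genes on the sWAT side at 30 °C became 6 when only the 6 libraries at 30 °C were fitted, none without the second BAT or the second sWAT library and 1 without the third BAT or the first sWAT library. Splicing regulators gave 21 of 63 in BAT and 8 in sWAT, and 16 and 22 with the GC curve removed, so their direction depended on that step. The signal-dependent splicing regulator Khdrbs3, at 33.1, 47.6 and 45.9 CPM in BAT and 2.86, 2.38 and 1.97 CPM in sWAT (4.13 ± 0.36), was called in BAT with the curve removed (2.88) and at 4 °C (1.14, adjusted p = 0.0333).

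**Figure D5:**
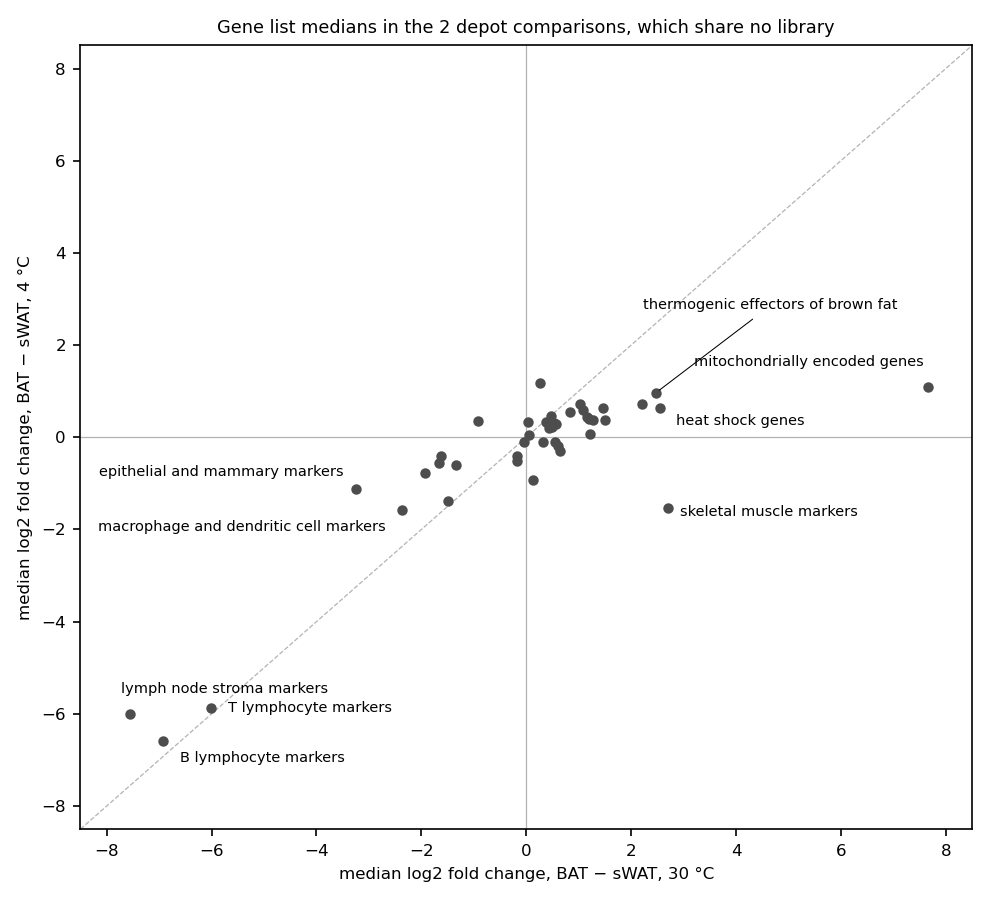
Median log2 fold change of each gene list with at least 5 tested members, BAT minus sWAT, at 30 °C (x axis) and 4 °C (y axis), with the line of equal values dashed. The lymphocyte and lymph node lists lie near that line at the lower left, the mitochondrially encoded genes lie far below it (7.66 and 1.09), and the skeletal muscle markers change sign (2.69 and -1.53).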

How the data were processed

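RNA-seq counts per gene symbol were analysed as the authors deposited them, as raw counts of 12 libraries from 1000 ng of total RNA each. STAR, DESeq2 and mm10 are named in the submitters' processing notes, while no source used here gives the counting tool, annotation, strand setting or what was merged. Without a strand setting, reads of overlapping genes cannot be told apart, and reads of near-identical copies, such as ribosomal protein pseudogenes, may be split. R 4.3.3 with edgeR 4.0.16 was used: filterByExpr, TMM scaling, a quasi-likelihood fit (robust) of 4 group means over the 12 libraries, and Benjamini-Hochberg adjustment over the 16365 genes tested, called at 0.05. An error beside a log2 fold change is its SE. DESeq2 1.42.0 and limma 3.58.1 were alternatives. GC content and length came from the longest GENCODE M21 transcript of 22240 genes, 96.02% of the table. The GC correction subtracts a lowess curve (span 0.3) per library. In the simulated data no unchanged gene was called. Unchanged genes were left equal between the depots there, so they carried no depot difference in GC slope or composition. The simulation therefore cannot give the share of false calls in the measured data, where the libraries differ in both. Counting error is small at these totals and does not cover differences between mice.

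The comparison and the gene lists were chosen with earlier results of these data known. Genes were named by a rule: Ucp1, Cidea, Dio2, Ppargc1a, Elovl3, Prdm16, Zic1, Lhx8, Lep, Adipoq, Fabp4, Tbx15, all Hox, mitochondrially encoded and cytochrome c oxidase isoform genes; the 8 largest differences each way; and up to 4 members per list with the smallest adjusted p, or 2 where none passed. Genes outside it were chosen after their values were seen, namely Cpt1b, Slc27a2, Pank1, Letmd1, Ucp3, Adrb3, Ppargc1b, Ppara, Esrra, Nfia, Thrb, Slc36a2, Mpzl2, Ebf3, Tmem26, Tnfrsf9, Retn, Nnat, Sncg, Cfd, Aldh1a1, Emx2, Ndufa5, Ndufa10, Atp5g3, Pcx, Ogdh, Cpt1a, Scd1, Slc2a1, Bcat2, Adra1a, Gnas, Ckb, Gamt, Alpl, Nrg4, Rarres2, Bmp7, Col3a1, Col5a3, Loxl1, Dpp4, Thy1, Dpt, Pdgfra, Glycam1, Lyz2, Csf1r, Cdh5, Kdr, Emcn, Pecam1, Podxl, Ano1, Cdh2, Heyl, Sox7, Ampd3, Hsp90ab1, Acta1, Emc2, Psmc6, Tbca and Ddx3y. Some genes that the rule names are not reported here.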

Additional observations from a re-analysis of the deposited data

Results flagged for a closer look

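The depot difference, BAT minus sWAT, was tested for a change between 30 °C and 4 °C by edgeR's quasi-likelihood interaction contrast with Benjamini-Hochberg adjustment, and 4108 of 16365 genes passed. The values below are the log2 difference at 30 °C minus that at 4 °C of the named genes that passed. The 3 sWAT libraries at 30 °C stand apart in GC slope, length slope, mitochondrial share and ribosomal share, and they enter each value. Whether those properties take part in them was not tested gene by gene. With the GC curve removed 3246 genes passed.

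Among thermogenic effectors the change was 3.004 for Cidea, 5.97 for Dio2, 6.57 for Kng2, 3.43 for Ntrk3, 5.40 for Fabp3, 2.23 for Cpt1b, 3.09 for Slc27a2, 2.37 for Gk and 2.49 for Pank1. Among regulators it was 3.61 for Ppargc1a, 1.96 for Ppargc1b, 2.30 for Ppara, 3.07 for Esrrg, 1.83 for Ebf2, 1.80 for Nfia, 2.36 for Thrb, 5.79 for Zic1 and 1.71 for Pparg. In all of these the depots lay closer together at 4 °C.

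Adipocyte and depot markers gave 1.73 for P2rx5, 1.72 for Mpzl2, -2.66 for Slc7a10, 2.71 for Lep, -2.87 for Trim14, -2.35 for Agt, 3.39 for Aldh1a1, 3.32 for Fabp4, 3.14 for Cd36, 3.54 for Nampt and 1.35 for Nrg4. Positional factors gave 1.74 for Hoxa4, 2.57 for Tbx15 and 4.44 for Six4. For Lep, Aldh1a1 and Tbx15 the fitted depot difference was larger in size at 4 °C, and for Aldh1a1, Tbx15, Six4 and Fabp4 its sign turned, of which Aldh1a1 and Tbx15 were called in sWAT at 4 °C.

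Mitochondrially encoded genes gave 7.04 for mt-Co1, 7.23 for mt-Cytb, 7.93 for mt-Nd6, 7.32 for mt-Co3, 6.75 for mt-Nd3 and 6.21 for mt-Nd5. Nuclear respiratory genes gave 7.11 for Uqcrb, 5.004 for Cycs, 3.96 for Ndufa5, 2.79 for Ndufs1, 2.58 for Uqcrc2, 1.77 for Ndufa10 and 1.87 for Cox7b. The citric acid cycle gave 3.76 for Sucla2, 3.57 for Dld, 2.56 for Idh3a and 1.67 for Idh3g.

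Lipid, sugar and amino acid enzymes gave 3.13 for Decr1, 2.44 for Hadhb, 2.72 for Acadl, -1.06 for Cpt1a, 2.24 for Elovl6, 2.06 for Scd1, 2.39 for Ldhb, 2.98 for Pdk4, 1.41 for Slc16a1, 3.13 for Hibch and 1.56 for Pcca. Peroxisomal and sterol genes gave 2.07 for Abcd3, 1.81 for Phyh, 2.77 for Fdft1 and 2.02 for Nsdhl. Signalling and cycling genes gave -2.06 for Adcy5, 2.43 for Pde4d, 1.53 for Slc6a8 and -1.94 for Atp2a3.

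Matrix and progenitor genes gave -3.11 for Col1a1, -1.90 for Col3a1, -2.32 for Col5a3, -4.21 for Loxl1, -1.49 for Mfap5, -2.25 for Pi16 and -2.20 for Icam1. Immune and lymph node genes gave -1.48 for Cd79b, -2.89 for Ccl19, -1.71 for C1qa, -1.19 for Csf1r and -1.34 for Clec10a, and the fitted value for Madcam1, which had no count in BAT at 30 °C and so no fold of its own, was -6.50. Vessel genes gave 1.80 for Flt1, 1.79 for Ptprb, 3.06 for Rgs5 and 1.97 for Abcc9.

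Stress and immediate early genes gave 2.63 for Nr4a2, 3.16 for Nr4a1 and 5.53 for Hspa1a, and muscle genes 6.15 for Tnnt1, 5.78 for Mb and 5.73 for Mybpc1. The remaining genes were Tfrc (6.56), Emc2 (5.32), Psmc6 (5.03), Tbca (4.97), Rps2 (-3.47), Rps19 (-2.04), Mrpl1 (3.94), Khdrbs3 (2.99) and Ddx3y (5.21).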

How the results depend on the processing

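Requiring a minimum log2 fold change of 1 was the only alternative that moved a count over all genes or over all lists together by more than 1.5 times: 2725 genes were then called higher in BAT, 2745 higher in sWAT and 1538 for a change between temperatures, and 419 list memberships were called in place of 682. Leaving out 1 library at a time gave 4311 to 4689 genes higher in BAT, 4225 to 4617 higher in sWAT, 3086 to 3993 for the change between temperatures and 587 to 640 called list memberships. Median-of-ratios scaling gave 4599 and 4960, the GC correction 4985 and 4477, DESeq2 4842 and 5154, limma-voom 4922 and 4817 and the fit of the 6 libraries at 30 °C alone 4389 and 4667. Higher calls in BAT made up 48.1% to 52.7% of the calls. The GC correction gave the same direction for 3682 and 3530 of the genes called without it and the opposite one for 19. Libraries of the 2 depots with the same experiment number had deviations correlated at 0.015, 0.221 and 0.070, and those with different numbers at -0.243 to 0.100. With so few libraries these values cannot decide whether the numbers mark pairs. The numbers were not taken as pairs because the labels do not give what an experiment number shares. The first sWAT library correlated better with the second BAT library, at 0.066, than with its own number. The replicate block on that number gave 4845 and 4781 genes, and with the GC correction 4844 and 4411. Of the 206 genes named, 182 were called, 160 of them in the same direction under each alternative run for them (at most 20), and 22 lost their call under at least 1, 8 under the GC correction and 6 when a library was left out. None of the 182 was reversed. The number of libraries limits what can be seen. On simulated counts 3 of 100 genes changed 2-fold and 56 of 100 changed 4-fold were called. There 15741 genes were left equal between the depots, whereas in the measured data 58.7% of genes were called. The adjusted p depends on that share, so the simulated shares cannot give the recovery in the measured data.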

Other observations

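Several cell types were represented by short or divided marker lists at 30 °C. Over all genes 29.9% were higher in BAT and 28.8% in sWAT, and some of the lists below lie near these shares. Of 10 granulocyte and mast cell markers 2 were higher in BAT and 6 in sWAT, with a median log2 fold change of -1.94. The 2 became 1 with the GC curve removed and without the first BAT library or the first or second sWAT library. Lymphatic endothelial markers had 2 of 7 on each side, and 1 in BAT and 2 in sWAT with the GC curve removed. Leaving out any single library took at least 1 side of that list to 1. Schwann cell and nerve markers had 3 of 11 on each side, but 5 in BAT and 1 in sWAT with the GC curve removed. They had 3 and 1 without the second or the third BAT library or the first sWAT library. Smooth muscle and pericyte markers had 4 of 12 higher in BAT and 2 in sWAT, and 8 and 1 with the GC curve removed. Of 8 erythrocyte markers 2 were higher in BAT and 1 in sWAT, and none of them with the GC curve removed, and 3 mesothelial markers gave 1 on each side. Thymus markers, of which 2 of 3 were higher in sWAT, had a median of -6.82 with Aire, without a count in BAT, at its bound.

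Among RNA classes, replication-dependent histone genes had 2 of 26 higher in BAT and 10 in sWAT, with a median of -0.92 against 0.35 at 4 °C. The 10 were 20 with no filter on low counts and 4 when at least 1 CPM in 3 libraries was required, and the median was -1.43 without the third BAT library. The 2 in BAT became 1 with the GC curve removed, none without the second BAT library and 1 without the first BAT library or the second or the third sWAT library. Of 8 long nuclear RNAs 4 were higher in BAT and 2 in sWAT, with a median of 1.21 against 0.07 at 4 °C. With the GC curve removed there were 2 on each side and the median was 0.28, and leaving out any single library took the sWAT count to 1. Endoplasmic reticulum stress genes gave 7 of 20 higher in BAT and 5 in sWAT. They gave 5 and 2 with the GC curve removed, 6 and 3 without the second sWAT library and 4 and 4 without the third. Of all genes higher in BAT at 30 °C, 67.7% had a positive difference at 4 °C, where 47.7% of all tested genes did, and of those higher in sWAT 82.4% had a negative difference, against 52.3%.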
